A study of Mus musculus with 6 samples.

Results

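The 36 genes described here encode the sensors, transcription factors, chaperones, degradation factors and biosynthetic enzymes of the unfolded protein response and the integrated stress response. They were chosen by name, and the transcript cluster (a set of probes for about 1 gene) with the highest mean over the 6 arrays stood for each. Of the 36, 33 had a named cluster among 22206 tested, and Manf, Pdia4 and Pycr1 had none in the annotation used and are not analysed here. The samples were renal tubular epithelial cells, freed with collagenase from mouse kidneys that had been made ischemic for 30 min and then reperfused for 24 h, which injures the tubule acutely. In the PT2385 group (3 arrays), the mice had been given the HIF-2α inhibitor PT2385 (10 mg/kg) 4 times: once 16 h ahead of surgery and then at 1, 8 and 20 h. The protocol spells the injected compound PT2384. In the vehicle group (3 arrays), the mice had the same ischemia and reperfusion and were given vehicle. All 6 samples thus came from injured kidneys, and strain, age, sex and pooling are not given in the labels. Uninjured kidneys were not analysed here.

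The unfolded protein response begins when misfolded proteins accumulate in the endoplasmic reticulum (ER). The sensor IRE1α (Ern1) splices the mRNA of the transcription factor XBP1, the sensor ATF6 is cleaved to release a transcription factor, and the sensor PERK (Eif2ak3) phosphorylates the translation factor eIF2α. XBP1 and ATF6 act on genes for ER chaperones and for ER-associated degradation. Phosphorylated eIF2α lowers general translation and favours translation of ATF4, which acts on genes for amino acid and serine synthesis and on feedback genes. In the kidney this network is known as a response of tubular cells to ischemia. The arrays report transcript amounts, so splicing of Xbp1, phosphorylation of eIF2α, cleavage of ATF6 and translation of ATF4 were not measured.

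Promoter sequences are shown because the factors of the ER branch and of the ATF4 branch bind different known elements. RefSeq promoter windows on GRCm38.p6, from 250 bases before to 50 bases after the annotated gene start, were found for 33 of the 36 members by symbol, all but Atf6, Hyou1 and Manf. Both strands were searched for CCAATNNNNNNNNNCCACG, the ER stress response element (ERSE) bound with the factor NF-Y by ATF6 and XBP1. An ERSE was present in 8 of 33 members (24.2%), against 37 of 27025 genes in the table (0.137%). All 8 belonged to the 16 chaperone, disulfide isomerase and degradation genes with a window, and 0 of the 11 feedback and synthesis genes with a window held one. Hsp90b1 held 2. The sites are written 5′ to 3′ on the strand of the motif, with its fixed letters in capitals.
Hspa5: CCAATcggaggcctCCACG
Hsp90b1, distal: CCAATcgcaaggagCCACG
Hsp90b1, proximal: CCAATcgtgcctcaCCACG
Calr: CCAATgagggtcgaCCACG
Canx: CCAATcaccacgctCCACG
Dnajc3: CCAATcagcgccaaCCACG
Creld2: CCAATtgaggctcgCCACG
Pdia6: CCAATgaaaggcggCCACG
Syvn1: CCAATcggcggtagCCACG

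The related element ERSE-II, ATTGGNCCACG, was in the windows of Herpud1 and Dnajb11 (6.06% of members) and of 0.0444% of all genes. The core of the element known as UPRE, TGACGTG, was in that of Hspa5 (3.03% of members) and of 2.22% of all genes. The C/EBP-ATF response element (CARE), the site that ATF4 binds with C/EBP partners, was searched as TGATGNAA. It was in the windows of Asns, Chac1, Trib3, Pycr1 and Herpud1 (15.2% of members), against 4.51% of all genes, and 4 of these 5 genes were among the 11 feedback and synthesis genes. None of the matches in members overlapped a match of another motif. A match is a description of the letters and not of binding, and a window without a match says nothing of the factor. The members were chosen as known genes of these responses, and the elements are known ones of the same responses. A higher share in members than in all genes therefore follows in part from that choice and was not tested. The full windows of Hspa5 (chr2:34771840-34772139, plus strand), Herpud1 (chr8:94386179-94386478, plus strand) and Asns (chr6:7693160-7693459, minus strand) are given as examples of an ERSE promoter, a promoter with both kinds of element and a CARE promoter. They are written 5′ to 3′ along the gene, with whole matches, spacer included, in capitals.
Hspa5: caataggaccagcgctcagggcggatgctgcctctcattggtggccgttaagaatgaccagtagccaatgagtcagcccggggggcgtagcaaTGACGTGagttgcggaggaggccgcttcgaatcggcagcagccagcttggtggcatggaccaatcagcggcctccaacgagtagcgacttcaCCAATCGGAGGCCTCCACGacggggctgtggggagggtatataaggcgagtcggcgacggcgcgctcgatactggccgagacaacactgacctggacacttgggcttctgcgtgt
Herpud1: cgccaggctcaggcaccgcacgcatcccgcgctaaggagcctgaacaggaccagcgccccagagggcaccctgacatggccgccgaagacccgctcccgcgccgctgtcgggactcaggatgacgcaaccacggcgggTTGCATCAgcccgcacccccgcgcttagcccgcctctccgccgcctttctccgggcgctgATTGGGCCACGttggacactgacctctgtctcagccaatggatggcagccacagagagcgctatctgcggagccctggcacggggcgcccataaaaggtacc
Asns: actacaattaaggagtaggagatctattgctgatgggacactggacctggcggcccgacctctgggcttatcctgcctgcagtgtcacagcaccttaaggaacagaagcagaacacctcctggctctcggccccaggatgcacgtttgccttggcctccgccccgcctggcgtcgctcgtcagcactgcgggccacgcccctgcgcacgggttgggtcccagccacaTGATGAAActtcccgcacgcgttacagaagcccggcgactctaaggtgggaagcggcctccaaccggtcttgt

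**Figure D1:**
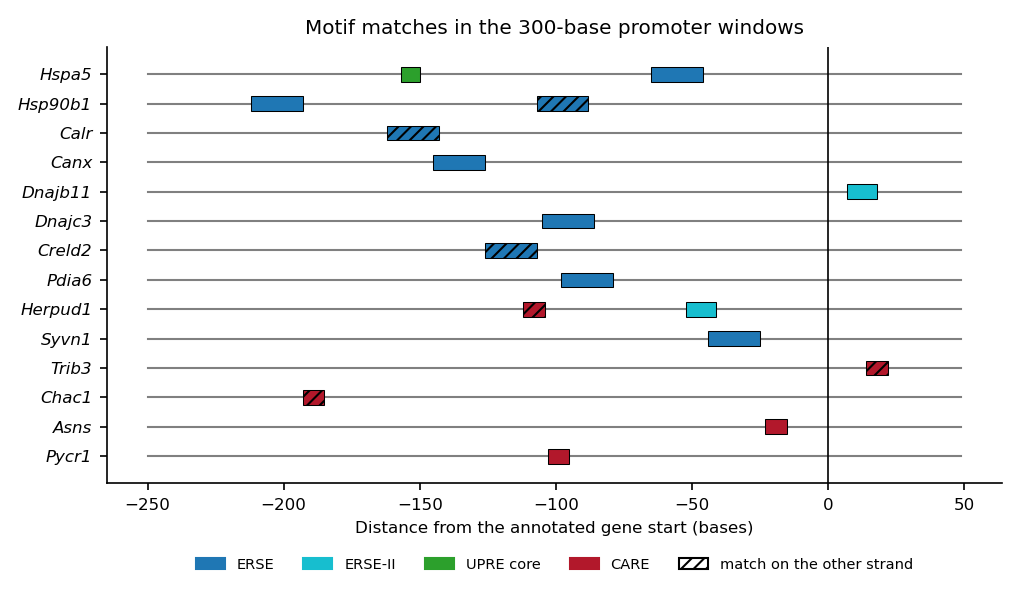
Positions of the 4 motifs in the promoter windows of the 14 members that held any. The horizontal axis is the distance from the annotated gene start in bases, each grey line is a window, coloured bars are matches and hatched bars are matches on the strand opposite to the gene. ERSE matches (dark blue) lie between 212 and 26 bases before the gene start, and CARE matches (red) are in Herpud1, Trib3, Chac1, Asns and Pycr1.

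The array medians were 6.24 to 6.25 with PT2385 and 6.20 with vehicle on the log2 signal scale, so counts of small positive and negative differences depend on the centring of the arrays. The groups also differed in Y-linked transcripts, with 3.27, 3.04 and 3.34 for Eif2s3y in the PT2385 arrays and 9.09, 9.24 and 9.28 in the vehicle arrays, so PT2385 and a difference in sex cannot be told apart for any result. Proximal tubule markers (14 of 15 measured) averaged 9.94 to 10.81 in the PT2385 arrays and 10.43 to 10.77 in the vehicle arrays. Within that list the transporter genes Slc7a13 (-4.09, adjusted p = 5.41e-05) and Slc22a6 (-0.97, adjusted p = 0.00572) were lower with PT2385, while Slc5a1 (0.68, adjusted p = 0.182) and Slc22a8 (0.45, adjusted p = 0.339) had positive differences that missed the threshold. Endothelial markers (10 of 10 measured) averaged 8.22 to 8.45 with PT2385 and 8.06 to 8.53 with vehicle, above the means of the background control rows (2.45 to 7.37). Fewer cells of a type and less RNA per cell cannot be told apart in such samples.

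No transcript of the unfolded protein or integrated stress response passed the threshold between the PT2385 and vehicle groups. By limma with Benjamini-Hochberg adjustment over all clusters, 0 of 33 members had an adjusted p under 0.05, with values from 0.148 (Shmt2) to 0.984 (Ern1), against 0.829% of all clusters. Of those clusters 74 were higher (0.333%) and 110 lower (0.495%), or 57 higher and 135 lower with arrays centred on their medians. At an unadjusted p under 0.05 there were 4 members, Sdf2l1 and Phgdh with higher values and Edem1 and Shmt2 with lower values, which is 12.1% of members against 14.5% of all clusters (7.94% higher and 6.54% lower). The groups did not overlap for 5 members (15.2%), these 4 and Mthfd2, against 20.7% of all clusters. Both shares were near or below those of all clusters. Without PT2385 replicate 2 the 4 genes at an unadjusted p under 0.05 became 1, Shmt2, and the share of all clusters became 9.54%. Without vehicle replicate 1 there were 2 such members, Herpud1 and Shmt2, and 12.9% of all clusters. The labels do not say that the samples of a group came from separate mice, so the p-values reflect no more than how far these samples lie apart, which may be a technical spread.

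Differences were small on the whole. The median difference over the 33 members, PT2385 minus vehicle in log2 signal, was 0.03, and that over all clusters was 0.02. The median size without regard to sign was 0.10 for members and 0.12 for all clusters. For 32 of 33 members the 95% interval of the difference lay inside a 2-fold change in either direction, the exception being Psat1. For 26 it lay within 0.5 on the log2 scale. These intervals are not adjusted for the number of genes, and a p that misses the threshold does not show that the groups were alike.

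**Figure D2:**
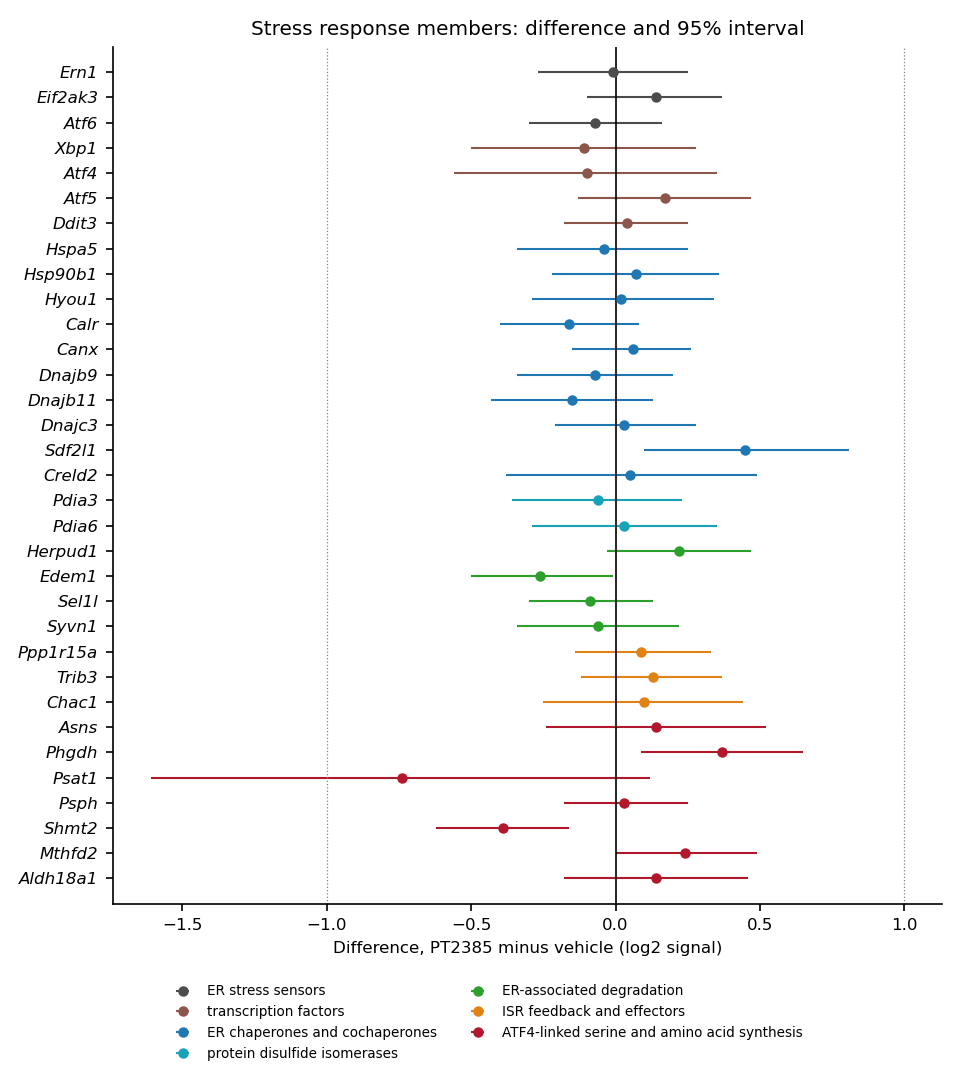
Difference between PT2385 and vehicle in log2 signal for each of the 33 measured members, ordered by role. Points are fitted differences over 3 arrays each, bars are 95% intervals from the moderated variance, and dotted lines mark a 2-fold difference. The intervals of Sdf2l1 (0.10 to 0.81) and Phgdh (0.09 to 0.65) lie above 0, and those of Edem1 (-0.50 to -0.01) and Shmt2 (-0.62 to -0.16) lie below it.

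The 3 sensors had nearly equal signals in both groups. Ern1, which encodes the kinase and endonuclease IRE1α, had log2 signals of 7.78, 7.87 and 8.11 in the PT2385 arrays, against 7.86, 7.89 and 8.03 in the vehicle arrays, giving a difference of -0.01 (SE 0.11, adjusted p = 0.984). Atf6, the gene of the sensor that is cleaved in the Golgi, had 8.84, 8.98 and 9.09 in the PT2385 arrays, against 9.0, 9.09 and 9.04 in the vehicle arrays. The groups overlapped for both genes, and the difference for Atf6 was -0.07 (SE 0.10, adjusted p = 0.778). Eif2ak3, encoding the eIF2α kinase PERK, had 9.24, 9.01 and 9.04 with PT2385 and 8.93, 8.90 and 9.06 with vehicle, and its difference was 0.14 (SE 0.10, adjusted p = 0.588). The intervals of these 3 sensors together span -0.30 to 0.37.

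Among the 4 transcription factors, Xbp1 and Atf4 were spread more widely in the PT2385 group than in the vehicle group. Xbp1, the substrate of IRE1α splicing, had 10.37, 10.78 and 11.10 in PT2385 replicates 1, 2 and 3, against 10.89, 10.80 and 10.88 in the vehicle arrays. PT2385 replicate 1 was the lowest of the 6 and PT2385 replicate 3 the highest, and the vehicle arrays lay between them. Atf4, the central factor of the integrated stress response, showed the same order, with 9.09, 9.64 and 9.96 in the PT2385 arrays, against 9.67, 9.78 and 9.56 in the vehicle arrays. The SD of Atf4 was 0.44 with PT2385 and 0.11 with vehicle (n = 3 each), and that of Xbp1 was 0.37 with PT2385 and 0.05 with vehicle. The difference was -0.10 for Atf4 (SE 0.20, adjusted p = 0.847) and -0.11 for Xbp1 (SE 0.17, adjusted p = 0.802). Without PT2385 replicate 1 these were 0.13 and 0.08, so the sign of both rested on that array.

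Atf5, encoding a relative of ATF4 whose translation is also favoured by eIF2α phosphorylation, had 6.56, 6.74 and 7.02 in the PT2385 arrays, against 6.57, 6.53 and 6.72 in the vehicle arrays. Its difference was 0.17 (SE 0.13, adjusted p = 0.591), and the groups overlapped. Ddit3 encodes CHOP, the factor tied to death of cells under lasting ER stress. It had 7.31, 7.34 and 7.18 in the PT2385 arrays, against 7.17, 7.29 and 7.27 in the vehicle arrays, giving a difference of 0.04 (SE 0.10, adjusted p = 0.894). A second, dimmer cluster of Ddit3 gave 0.08 (adjusted p = 0.774). The interval for the brighter cluster was -0.18 to 0.25.

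Of the 14 chaperone, cochaperone and disulfide isomerase genes, 12 were measured, 7 with a positive and 5 with a negative difference, although centring arrays on their medians turned Hyou1, Dnajc3 and Pdia6 to -0.02, -0.01 and -0.02. Their median difference was 0.02. Hspa5, which encodes BiP, the main HSP70 chaperone of the ER and a release switch for all 3 sensors, had 12.00, 12.17 and 12.05 in the PT2385 arrays, against 12.10, 11.90 and 12.35 in the vehicle arrays. Both ends of this range were vehicle arrays, and the difference was -0.04 (SE 0.13, 95% interval -0.34 to 0.25, adjusted p = 0.902). Hsp90b1, encoding the ER HSP90 chaperone GRP94, had 11.60, 11.64 and 11.54 in the PT2385 arrays, against 11.54, 11.28 and 11.75 in the vehicle arrays, giving a difference of 0.07 (SE 0.13, adjusted p = 0.835). The vehicle arrays again enclosed the PT2385 arrays.

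The lectin chaperones for glycoproteins are calreticulin and calnexin. Calr, encoding calreticulin, had 12.21, 12.17 and 12.15 with PT2385 and 12.36, 12.18 and 12.49 with vehicle, giving a difference of -0.16 (SE 0.11, adjusted p = 0.520). Only 1 vehicle array, replicate 2, lay inside the range of the PT2385 arrays. Canx, encoding the membrane-bound calnexin, had a difference of 0.06 (SE 0.09). The groups overlapped for Canx as well.

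Sdf2l1 had the highest positive difference of all members. It encodes a stress-induced ER protein that works with BiP and the cochaperone ERdj3. Its signals were 7.57, 7.81 and 7.48 in the PT2385 arrays, against 7.07, 6.95 and 7.47 in the vehicle arrays. All 3 PT2385 arrays lay above all vehicle arrays, but the gap between PT2385 replicate 3 and vehicle replicate 3 was only that between 7.48 and 7.47. The difference was 0.45 (SE 0.15, unadjusted p = 0.0168, adjusted p = 0.241). Its adjusted p lay between 0.0854 and 0.557 over the alternatives.

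The other chaperone genes overlapped between groups. Hyou1, an HSP110-type nucleotide exchange factor for BiP, had 0.02 (SE 0.14), and Creld2, an ER-stress-induced disulfide isomerase-like protein gene, had 0.05 (SE 0.19). The J-domain cochaperone genes Dnajb9 (ERdj4), Dnajb11 (ERdj3) and Dnajc3 (p58IPK, which also restrains PERK) had differences of -0.07, -0.15 and 0.03. Dnajb11 had 8.16, 8.23 and 8.33 in the PT2385 arrays, against 8.60, 8.19 and 8.37 in the vehicle arrays, and vehicle replicate 2 lay among the PT2385 arrays. Adjusted p for these 5 genes ran from 0.615 (Dnajb11) to 0.961 (Hyou1).

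The disulfide isomerases form and rearrange disulfide bonds in new ER proteins. Pdia3 (ERp57), the partner of calreticulin and calnexin, had 10.89, 10.85 and 10.81 in the PT2385 arrays, against 11.02, 10.63 and 11.09 in the vehicle arrays. Pdia6 had 10.41, 10.62 and 10.71 in the PT2385 arrays, against 10.62, 10.29 and 10.75 in the vehicle arrays. For both, vehicle replicate 2 was the lowest array and vehicle replicate 3 the highest. The differences were -0.06 (SE 0.13, adjusted p = 0.860) for Pdia3 and 0.03 (SE 0.14, adjusted p = 0.949) for Pdia6.

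The 4 genes of ER-associated degradation, which returns misfolded proteins to the cytosol for the proteasome, had differences on both sides of 0. Edem1, which encodes a lectin that sends mannose-trimmed glycoproteins to degradation, had 8.80, 8.53 and 8.55 in the PT2385 arrays, against 8.93, 8.81 and 8.91 in the vehicle arrays. The highest PT2385 array lay just under the lowest vehicle array, and the difference was -0.26 (SE 0.11, unadjusted p = 0.0427, adjusted p = 0.328). Herpud1, encoding a stress-induced organiser of the degradation complex, had 10.75, 10.52 and 10.64 in the PT2385 arrays, against 10.57, 10.36 and 10.32 in the vehicle arrays, giving a difference of 0.22 (SE 0.11, adjusted p = 0.401). PT2385 replicate 2 lay below vehicle replicate 1, so the groups overlapped. Syvn1, the ubiquitin ligase HRD1, and its partner Sel1l had -0.06 (SE 0.12) and -0.09 (SE 0.10), with adjusted p of 0.862 and 0.704.

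The 3 feedback and effector genes of the integrated stress response all had small positive differences and dim signals. Trib3, a pseudokinase gene induced by ATF4 and CHOP, had 6.02, 6.12 and 6.21 in the PT2385 arrays, against 5.95, 6.14 and 5.88 in the vehicle arrays, giving a difference of 0.13 (SE 0.11, adjusted p = 0.611). Chac1, encoding a glutathione-degrading enzyme, had 5.76, 5.64 and 5.51 in the PT2385 arrays, against 5.25, 5.83 and 5.54 in the vehicle arrays, giving a difference of 0.10 (SE 0.15, adjusted p = 0.802). The 2 ends of the Chac1 range were vehicle arrays. Ppp1r15a (GADD34), which directs the phosphatase that restores eIF2α, had 5.18, 5.43 and 5.36 in the PT2385 arrays, against 5.30, 5.15 and 5.24 in the vehicle arrays, giving a difference of 0.09 (SE 0.10, adjusted p = 0.712). Both group means of these 3 genes, and of Atf5, Ddit3, Phgdh and Aldh18a1 (7 members in all), were no higher than the brightest background control row given above. Arrays may understate differences at such signals, which was not tested here.

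The ATF4-linked synthesis genes did not share a direction: of 7 measured, 5 had positive and 2 negative differences, with a median of 0.14. Psat1, Shmt2 and Phgdh of the serine and one-carbon route had 3 of the 4 largest differences in size among the measured members. Phgdh, the first enzyme of serine synthesis from glycolysis, had 6.79, 7.02 and 7.06 in the PT2385 arrays, against 6.45, 6.78 and 6.52 in the vehicle arrays. All PT2385 arrays lay above the vehicle arrays, narrowly so for PT2385 replicate 1 and vehicle replicate 2, and the difference was 0.37 (SE 0.12, unadjusted p = 0.0157, adjusted p = 0.236).

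Psat1, the aminotransferase of the next step, had the widest spread of any member. Its signals were 7.91, 9.01 and 9.66 in PT2385 replicates 1, 2 and 3, against 9.63, 9.88 and 9.31 in the vehicle arrays. PT2385 replicate 3 lay inside the vehicle range, while PT2385 replicates 1 and 2 lay below it. The SD was 0.89 with PT2385 and 0.29 with vehicle (n = 3 each). The difference was -0.74 (SE 0.38, 95% interval -1.61 to 0.12, adjusted p = 0.409), and without PT2385 replicate 1 it was -0.27. Psph, the phosphatase that ends the pathway, had 0.03 (SE 0.09, adjusted p = 0.898).

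The mitochondrial enzymes of the one-carbon route from serine had values on opposite sides. Shmt2, which splits serine into glycine and a one-carbon unit, had 8.92, 8.75 and 8.67 in the PT2385 arrays, against 9.16, 9.13 and 9.23 in the vehicle arrays. The groups were separated by a gap, and the difference was -0.39 (SE 0.10, unadjusted p = 0.00419, adjusted p = 0.148), the smallest p of the members. Its adjusted p over the alternatives was 0.0564 to 0.428. Mthfd2, the next enzyme of that one-carbon route, had 7.45, 7.77 and 7.68 in the PT2385 arrays, against 7.44, 7.40 and 7.33 in the vehicle arrays, giving a difference of 0.24 (SE 0.11, unadjusted p = 0.0538, adjusted p = 0.354). PT2385 replicate 1 was just above vehicle replicate 1, and the other PT2385 arrays were higher.

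Asns, the asparagine synthetase and a widely used readout of ATF4, had 8.05, 8.10 and 8.46 in the PT2385 arrays, against 7.80, 8.36 and 8.03 in the vehicle arrays. The groups overlapped, with a difference of 0.14 (SE 0.17, adjusted p = 0.732). Aldh18a1, which starts proline synthesis from glutamate, had 6.53, 6.89 and 7.08 in the PT2385 arrays, against 6.63, 6.75 and 6.70 in the vehicle arrays, giving a difference of 0.14 (SE 0.14, adjusted p = 0.685). As with Xbp1 and Atf4, PT2385 replicates 1 and 3 were the lowest and highest of the 6 arrays for this gene.

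**Figure D3:**
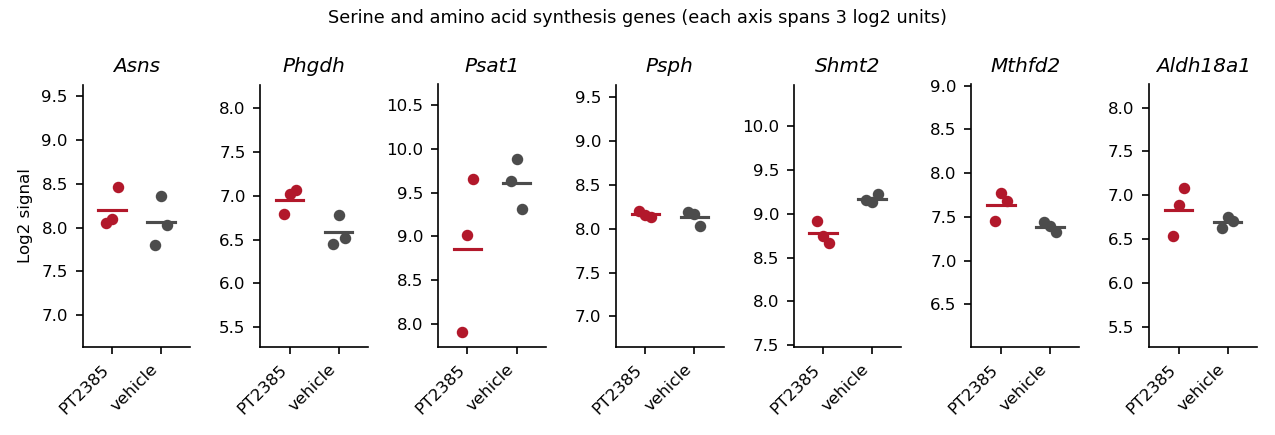
Log2 signals of the 7 measured serine and amino acid synthesis genes. Points are single arrays (PT2385 in red, vehicle in dark grey), lines are group means, and every axis spans the same 3 log2 units around the gene's own mean. Shmt2 is lower in all PT2385 arrays (8.67 to 8.92) than in the vehicle arrays (9.13 to 9.23), and Psat1 is spread from 7.91 to 9.66 within the PT2385 group.

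The low means of the transcription factors and synthesis genes in PT2385 replicate 1 came largely from Xbp1, Atf4 and Psat1. The mean deviation of the 4 transcription factors from their 6-array averages was -0.258, 0.031 and 0.224 for PT2385 replicates 1, 2 and 3, against -0.0173, 0.00827 and 0.0125 in the vehicle arrays. That of the 7 synthesis genes was -0.239, 0.0213 and 0.172 in the PT2385 arrays, against -0.0317, 0.132 and -0.0548 in the vehicle arrays. The low value in PT2385 replicate 1 came mainly from Psat1, which deviated by -1.32 there. Without Psat1, left out after its values were seen, the other 6 synthesis genes deviated by -0.0576, 0.0614 and 0.129 in the PT2385 arrays, against -0.103, 0.0467 and -0.0761 in the vehicle arrays, and the lowest array was vehicle replicate 1. Xbp1 and Atf4 were also left out after their values were seen. Atf5 and Ddit3, the transcription factors then left, likewise had their lowest mean in vehicle replicate 1 (-0.105, against -0.0368 in PT2385 replicate 1). Among the PT2385 arrays, replicate 1 was still the lowest for both reduced lists. Shmt2, Psph and Ddit3 of these lists were lowest in PT2385 replicate 3 among the PT2385 arrays. Over all 33 members PT2385 replicate 1 was the lowest of the 6 arrays (-0.107). The same held for the 127 other pathway genes described below (-0.0906). The 12 chaperone and disulfide isomerase genes had another pattern, with -0.0699, 0.0725 and 0.0266 in the PT2385 arrays, against 0.0227, -0.201 and 0.149 in the vehicle arrays. The low value in vehicle replicate 2 was shared across this list, since all but Hyou1 had their lowest vehicle signal there. Of the 33 members, 20 (60.6%) had their lowest PT2385 signal in replicate 1, against 37.3% of all clusters, a count with no test since genes of 1 array are not independent. The PT2385 arrays spanned over 0.5 for 5 of the 33 members, against 13.3% of all clusters. All 5 were lowest in replicate 1, as were 40.0% of all clusters with such a PT2385 span. The vehicle arrays spanned over 0.5 for 5 members as well, against 11.7% of all clusters.

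**Figure D4:**
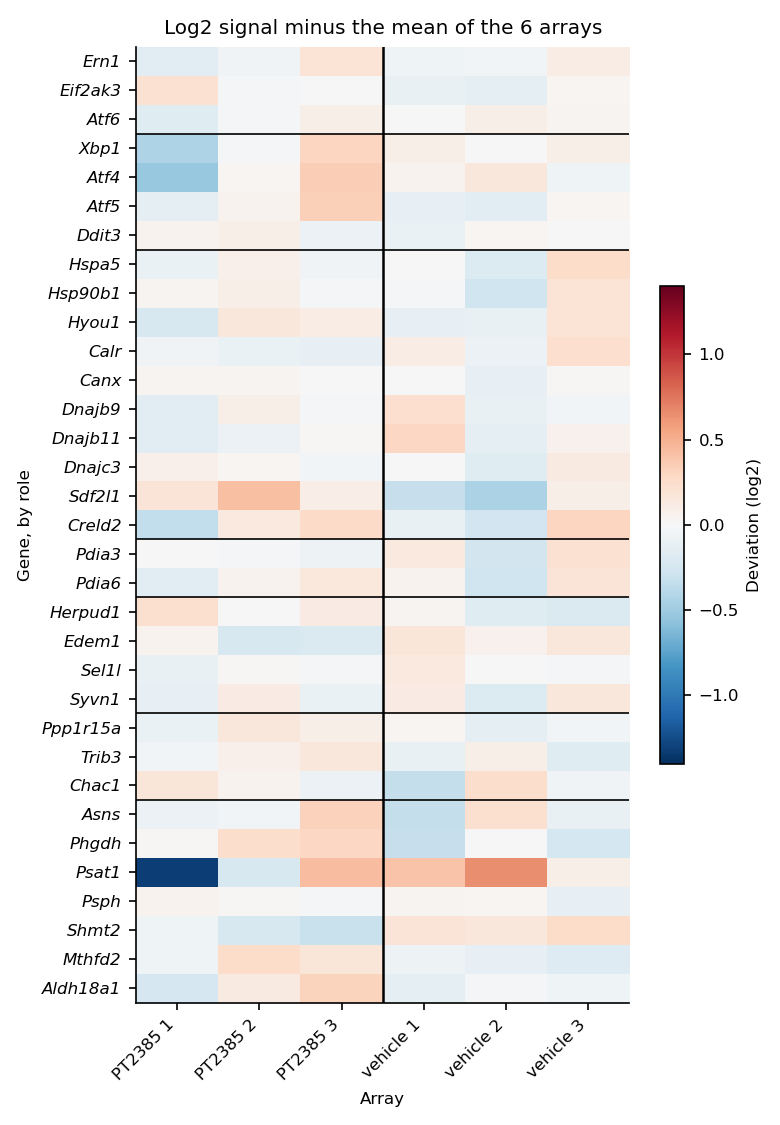
Log2 signal of each measured member in each array minus that gene's mean over the 6 arrays, as colour (red above, blue below). Columns are the 3 PT2385 and then the 3 vehicle arrays, and horizontal lines divide the roles. Xbp1, Atf4 and Psat1 are lowest in PT2385 replicate 1.

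Marker lists also varied across these arrays. Markers of injured tubule (9 of 10 measured) deviated by -0.756, 0.00402 and 0.297 in PT2385 replicates 1, 2 and 3, against -0.0121, 0.377 and 0.0899 in the vehicle arrays, and their mean signal was 9.20 to 10.25 with PT2385 and 9.94 to 10.33 with vehicle. Loop of Henle and distal convoluted tubule markers (10 of 10 measured) deviated by 1.15, 0.501 and 0.0919 in the PT2385 arrays, against -0.632, -0.591 and -0.52 in the vehicle arrays, with mean signals of 9.01 to 10.07 with PT2385 and 8.29 to 8.40 with vehicle. PT2385 replicate 1 was thus the lowest array for the injury list and the highest for the distal list. It was also the highest for the proximal tubule list, which deviated by 0.327, -0.18 and -0.544 in the PT2385 arrays. In the vehicle arrays that list deviated by 0.166, -0.0541 and 0.286. The 10 distal markers all had positive differences (median 1.13) and an unadjusted p under 0.05. Of these, Cldn19 passed the threshold by limma (1.24, adjusted p = 0.0259). Collecting duct markers (10 of 10 measured) averaged 8.49 to 8.77 with PT2385 and 8.00 to 8.20 with vehicle, with positive differences for all 10 (median 0.50), of which 7 had an unadjusted p under 0.05 and 0 passed the threshold by limma. Macrophage and monocyte markers (11 of 12 measured) averaged 6.49 to 6.74 with PT2385 and 6.77 to 7.14 with vehicle. Of these, 5 had positive and 6 negative differences (median -0.05), and Lyz2 passed the threshold by limma (-1.19, adjusted p = 0.0202). Neutrophil markers (9 of 10) averaged 4.80 to 5.31 with PT2385 and 5.39 to 5.56 with vehicle. Among them 3 had positive and 6 negative differences (median -0.24). Csf3r passed the threshold by limma (-1.04, adjusted p = 0.0326), and Mmp8 and Ngp were not above the negative control rows. B and plasma cell markers (9 of 10), of interest because plasma cells carry much Xbp1, averaged 4.57 to 4.80 with PT2385 and 4.59 to 4.71 with vehicle, and 5 of them (Cd79a, Cd79b, Irf4, Ms4a1 and Mzb1) were not above the negative control rows. The part of these cell types in the values of the members was not tested.

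**Figure D5:**
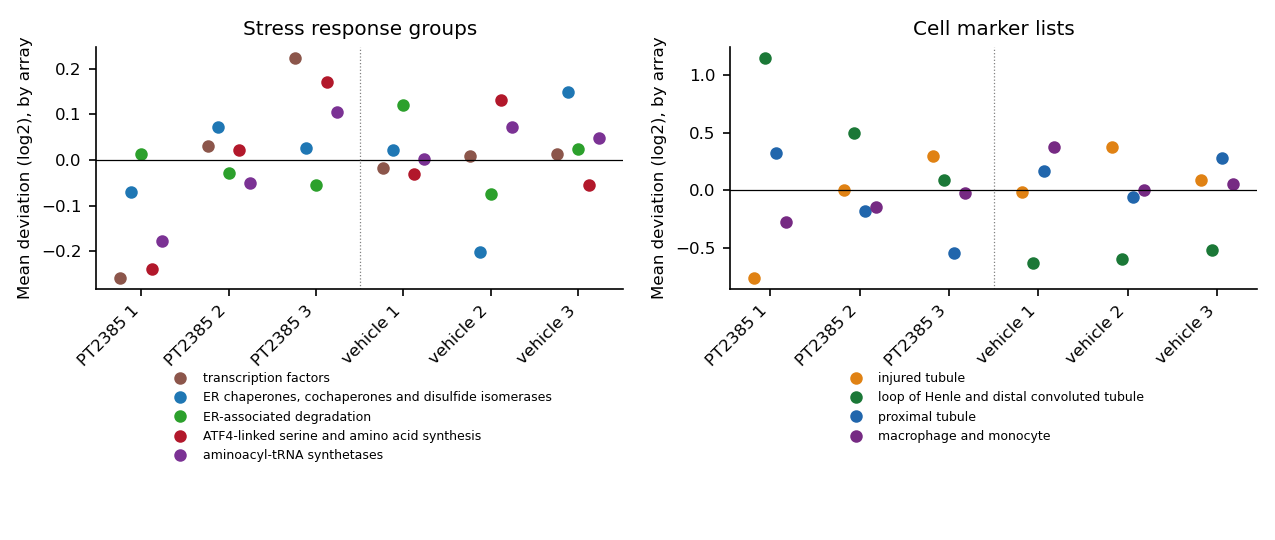
Mean deviation, in log2 signal, of gene groups from their averages over the 6 arrays, with stress response groups on the left and cell marker lists on the right. Each point is 1 array. Transcription factors (-0.258) and synthesis genes (-0.239) are low in PT2385 replicate 1, where the injured tubule list is at -0.756 and the distal list at 1.15. Without Psat1 (not drawn) the synthesis genes are at -0.0576 in that array and lower, at -0.103, in vehicle replicate 1.

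Other genes of the pathway gave a like result. Of 138 further genes listed, 127 were measured and 0 passed the threshold by limma, while 8 higher and 8 lower had an unadjusted p under 0.05 (12.6%, against 14.5% of all clusters). Their median difference was 0.00. The nearest to the threshold was Slc6a9, a glycine transporter gene linked to ATF4, with 7.98, 7.97 and 8.07 in the PT2385 arrays, against 8.65, 9.07 and 8.56 in the vehicle arrays. The groups were well apart, with a difference of -0.75 (SE 0.14, adjusted p = 0.0567), and its adjusted p ran from 0.0214 to 0.255 over the alternatives. Jdp2, an AP-1 family repressor gene, had the next smallest unadjusted p of the 31 other ATF4-linked targets, with a difference of 0.39 (SE 0.10, adjusted p = 0.160).

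The remaining lists are given with the genes of smallest p. Among 33 other folding and translocation genes, 22 had positive differences (median 0.06), and Txndc5, an ER thioredoxin-like gene, had 0.35 (SE 0.10, adjusted p = 0.185) and Ppib, the ER cyclophilin gene, 0.22 (SE 0.09, adjusted p = 0.319). Among 19 other degradation genes, 12 had negative differences (median -0.05), and Vcp, the ATPase that pulls proteins from the ER, had -0.34 (SE 0.11, adjusted p = 0.220) and Derl2, a channel component gene, -0.26 (SE 0.10, adjusted p = 0.289). Among 18 other signalling genes, Creb3l2, an ATF6-like factor gene, had 0.29 and Nfe2l1, an ER-anchored factor gene for proteasome supply, had 0.22, with a list median of 0.10. Of 16 aminoacyl-tRNA synthetase genes, which charge tRNAs with amino acids, 12 were negative (median -0.06), with the isoleucyl-tRNA synthetase gene Iars at -0.39 and the seryl-tRNA synthetase gene Sars at -0.22. Of 10 eIF2 kinase and eIF2B genes 8 were negative (median -0.14), with Impact, whose product restrains the kinase GCN2, at -0.30 and Eif2b3, an eIF2B subunit gene, at -0.27. Adjusted p for the last 6 named genes lay between 0.257 and 0.503.

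The motif classes were read against the differences. The 8 members with an ERSE had differences between -0.16 (Calr) and 0.07 (Hsp90b1), 5 positive and 3 negative, with a median of 0.03. The 29 other genes with an ERSE in their window were not members, and 20 of them were measured. Of these 0 passed the threshold by limma, against 0.829% of all clusters. At an unadjusted p under 0.05, 0 had higher and 1 had lower values, against 14.5% of all clusters in either direction. Their median difference was 0.02. Signal levels of these 20 genes, among them the olfactory receptor gene Olfr59, were not examined, so no conclusion on the element is drawn. The 4 measured members with a CARE had differences between 0.10 and 0.22, all positive (Chac1 was -0.05 without vehicle replicate 1), where 57.6% of members and 53.5% of all clusters were positive. Each of these 4 overlapped between groups.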

How the data were processed

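RNA of renal tubular epithelial cells was labelled with biotin and hybridised to a mouse whole-transcript array, per the labels' protocols. The authors deposited log2 signals for 6 arrays, made with Transcriptome Analysis Console per the submitters' processing notes, and the normalization method is not given in the sources used here. Samples labelled IRPT were taken as the PT2385 group and those labelled IR as the vehicle group. The 36 members and the other gene lists were chosen with earlier results of these data known.

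Of 28846 deposited values per array, 6640 control entries were left out, and 22206 transcript clusters were tested without a filter. Symbols came from the platform annotation of the array: 19572 clusters had 1 symbol, 0 had several and 2634 had none. The comparison used limma 3.58.1 under R 4.3.3 (lmFit and eBayes, treatment as the only term), with Benjamini-Hochberg adjustment over all clusters, a threshold of 0.05 and two-sided p-values. Every measured member is named. The other pathway genes named are the 2 of smallest unadjusted p in each list, and Slc1a4, which was chosen after its values were seen. Marker genes were also named after their values were seen: 4 of the proximal tubule list, Cldn19, Lyz2, Csf3r, those not above the negative control rows, and Eif2s3y. With 3 arrays per group, their number limits the precision. Same-numbered arrays of both groups had correlations of 0.138, 0.0252 and -0.0587 between their deviations from the group means, so the replicate numbers were not taken as pairs. Promoter windows came from RefSeq on GRCm38.p6, and motifs were searched on both strands. The 17 alternatives tried cover normalization, filters, choice of cluster, variance prior, array weights, the replicate block, the X and Y chromosomes and leaving out each array.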

Additional observations from a re-analysis of the deposited data

How the results depend on the processing

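In all 17 alternatives 0 of 33 members passed the threshold by limma, and the lowest adjusted p was 0.0564 (Shmt2, array weights). Of 561 differences recomputed, 32 changed sign, in 15 members whose differences were at most 0.11 in size, and 18 members kept their sign. Leaving out 1 array gave 42 to 179 clusters past the threshold (14 to 76 higher, 28 to 117 lower), 1 to 6 members at an unadjusted p under 0.05 (9.54% to 15.0% of all clusters) and 6 to 11 members without overlap, and the median difference of the members ran between -0.04 and 0.07. With fewer arrays, groups also failed to overlap for more of all clusters (27.1% to 33.4%). Array weights gave 456 clusters (191 higher, 265 lower). With the replicate block 178 clusters passed, 3 members had an unadjusted p under 0.05, and 1 other pathway gene passed, Slc1a4, an amino acid transporter gene (-0.78, adjusted p = 0.0235, and 0.0235 to 0.457 over the alternatives). That count was also 1, Slc6a9, with median-centred arrays (adjusted p = 0.0445), a trended robust prior (0.0358) and array weights (0.0214). Signs turned for Ern1 with quantile normalization (0.05) and cyclic loess (0.03), for Hspa5 (0.02) and Syvn1 (0.01) with array weights, and with median-centred arrays for Ddit3 (-0.01), Hyou1 (-0.02), Dnajc3 (-0.01), Pdia6 (-0.02) and Psph (-0.01). Leaving out 1 array gave differences of -0.10 to 0.06 for Ern1, -0.29 to 0.08 for Xbp1, -0.30 to 0.13 for Atf4, 0.00 to 0.08 for Ddit3, -0.15 to 0.07 for Hspa5 and -0.05 to 0.18 for Hsp90b1. The same gave -0.05 to 0.14 for Hyou1, -0.14 to 0.03 for Dnajb9, -0.04 to 0.10 for Dnajc3, -0.07 to 0.24 for Creld2 and -0.20 to 0.02 for Pdia3. It gave -0.11 to 0.13 for Pdia6, -0.17 to 0.00 for Syvn1, -0.05 to 0.24 for Chac1 and -0.01 to 0.06 for Psph. The cause of these changes was not tested.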
